A study of Saturnispora dispora and Saturnispora hagleri and Saturnispora mendoncae with 16 samples.

Results

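The transcriptomes of the rapid ECAR yeast *Sat. hagleri* (Shag) and the low ECAR yeast *Sat. silvae* (Ssil) were compared with each other. ECAR is the extracellular acidification rate, a proxy for the rate of glycolysis. The comparison used 8 of the 16 RNA-seq libraries of a series on 4 species of the budding yeast genus *Saturnispora*, with 4 biological replicates of Shag and 4 of Ssil. The other 8 libraries came from the rapid ECAR species *Sat. dispora* (Sdis) and the low ECAR species *Sat. mendoncae* (Smen). Members were chosen by species label alone. Levels were compared in orthogroups, which are sets of genes that descend from 1 ancestral gene. Of the 5029 orthogroups in the table, 4501 had a value in both Shag and Ssil. A further 339 had a value in Shag and not in Ssil, 110 in Ssil and not in Shag, and 79 in neither, and these were kept apart from the comparison of levels.

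The labels name no genetic change in any culture. Cells were inoculated at an OD600 of 0.05 in synthetic complete medium (50 ml, 2% glucose), shaken at 225 rpm in baffled flasks of 250 ml at 22 °C and harvested in log phase. Shag cells were collected after 15 h and Ssil cells after 18 h. Species, ECAR class and hour of collection changed together, so their parts in any difference cannot be told apart.

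Yeast cells take up glucose through hexose transporters, phosphorylate it, and split and oxidize it in glycolysis. The pyruvate formed can be respired in mitochondria or fermented to ethanol. Yeasts that ferment glucose although oxygen is present are called Crabtree positive, and *S. cerevisiae* is the best known of them. In that species, glycolytic genes are among the most highly transcribed genes in glucose.

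Levels are given as TPM, the share of all transcripts in a library that an orthogroup takes up, corrected for gene length. A library pools the RNA of many cells, so a level that differs in all cells and one that differs in some of them cannot be told apart, nor can a change in RNA per cell be seen. The counts assigned to genes were between 8828330 and 12125393 in the Shag libraries and between 6196684 and 11817386 in the Ssil libraries. Reads outside annotated genes made up 3.08% to 4.10% of Shag reads and 3.71% to 16.3% of Ssil reads. The Shag libraries varied more among themselves than the Ssil libraries. The median SD over replicates was 0.30 in Shag and 0.09 in Ssil on the log2(TPM + 1) scale. Shag replicate 3 lay farthest from its species mean, with a root mean square deviation of 0.47, against 0.18, 0.22 and 0.39 for Shag replicates 1, 2 and 4 and at most 0.14 in Ssil. Replicates were separate biological replicates according to the study's methods, and no pair of libraries was alike within sampling noise.

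Most orthogroups differed between Shag and Ssil. Of the 4417 orthogroups with a mean of at least 5 TPM over the 8 libraries, 3676 (83.2%) were called at an adjusted p of 0.05 in limma. In TPM, 998 (22.6%) were higher in Shag and 2678 (60.6%) were lower. The median difference, Shag minus Ssil, was −0.64 on the log2 scale. The split between higher and lower depended on the scale. A second scale divided each library by the median of its ratios to the geometric means over libraries. On it 3639 (82.4%) were called, with 1818 (41.2%) higher, 1821 (41.2%) lower and a median of −0.01. All 998 orthogroups that were higher in TPM were also higher after rescaling, and 1821 of the 2678 lower ones were also lower. The rescaling shifted differences upwards, so this overlap of the calls was largely built in. Differences of single genes are therefore given below in TPM and again after rescaling.

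The called differences covered a wide range. In TPM, 2095 orthogroups (47.4%) were called and at least 2-fold different, 442 of them higher in Shag and 1653 (37.4%) lower. At 16-fold the numbers were 50 higher and 53 lower. The 4 Shag libraries did not overlap with the 4 Ssil libraries in 3361 orthogroups (76.1%), of which 868 (19.7%) lay above and 2493 (56.4%) below. Without Shag replicate 3, the library that lay farthest out, 1064 were higher and 2635 lower, and without Shag replicate 4 the numbers were 979 and 2790.

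The split differed by level. Among the 180 orthogroups with a mean of at least 1000 TPM, 60% were higher in Shag and 31.1% lower, and the median difference was 1.07 (log2). Among the 1187 orthogroups between 50 and 100 TPM, 17.9% were higher and 65.8% lower, with a median of −0.79. The orthogroups from 1000 TPM upwards held 54.6% ± 3.9 of all TPM in Shag and 43.1% ± 0.37 in Ssil (SD, n = 4 each). After rescaling the medians of these 2 classes were 1.71 and −0.15. Of the 108 orthogroups from 1000 TPM upwards that were higher in Shag, 67 belonged to the group described next. Without that group, 36.3% of the other 113 were higher and 49.6% lower, with a median of −0.24 in TPM and 0.40 after rescaling. As the group was picked for its large differences, leaving it out had to lower the share that was higher and the median.

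**Figure D1:**
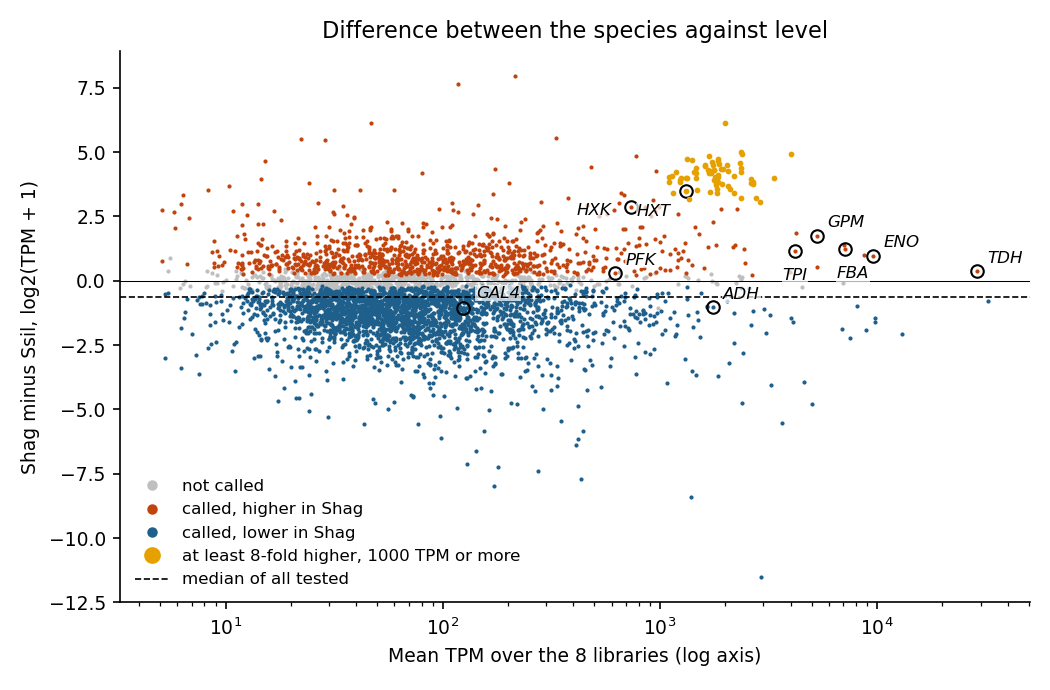
Difference between Shag and Ssil in log2(TPM + 1) against the mean TPM over the 8 libraries (log axis) for the 4417 orthogroups tested, each a point coloured by its call in limma, with the named genes circled. The dashed line is the median, −0.64. The 67 orange points are those at 1000 TPM or more and at least 8-fold higher in Shag, a group picked after its values were seen.

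A group of highly transcribed orthogroups stood apart in this comparison by the size of its differences. Of the 180 orthogroups at 1000 TPM or more, 67 were at least 8-fold higher in Shag, at log2 differences between 3.04 and 6.14 and a median of 4.07. Only 9 lay between 1.5 and 3 on the log2 scale, and the nearest below the limit was at 2.79. Over all levels, 98 called orthogroups were at least 8-fold higher in Shag, so such differences were not confined to 1000 TPM or more. The group was picked after its values were seen, so no test was made of it.

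The 67 orthogroups held 27.1%, 20.5%, 31.3% and 15.9% of all TPM in Shag replicates 1 to 4, against 1.14%, 1.23%, 1.64% and 1.68% in Ssil replicates 1 to 4. Members were picked as higher in Shag, so a gap between the species follows from the choice and is no result of its own. Mean levels of single members were between 2072 and 7780 TPM in Shag (median 3388) and between 54.6 and 610 TPM in Ssil (median 179). In Shag, 59 of the 67 were among the 100 highest orthogroups, and in Ssil none was, which the choice also favoured. In 64 of the 67, the Shag libraries had the same order, with replicate 3 the highest, then replicates 1, 2 and 4.

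The genes of this group were short. Their median coding length was 150 codons in Shag and 153 in Ssil, against a median over all orthogroups with a known length of 414 codons in Shag and 412 in Ssil. The group was chosen by TPM, which divides by length, and its lengths are not compared here with those of other orthogroups at that level. Of the 67, 61 were under 300 codons in Shag, and 65 had 1 gene in each species. The files do not pair these orthogroups with gene names, apart from *HXT*, which is described below. In the libraries that played no part in choosing the group, its members held 34.8% ± 0.75 of TPM in Sdis and 21.96% ± 0.22 in Smen (SD, n = 4 each), where 66 of the 67 had a value in each species. The Shag share of 23.7% ± 6.8 thus lay near that of Smen, and the Ssil share of 1.42% ± 0.27 was the lowest of the 4 species. Members were picked as low in Ssil against Shag, so a low Ssil share was built into the choice.

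TPM is a share, so a group that takes up more of one library lowers all the rest in it. When TPM was recomputed without the 67 orthogroups, an alternative chosen after seeing the data, 1372 orthogroups were higher in Shag, 2172 were lower and the median became −0.30. The spread between Shag libraries followed the same group. The median TPM over all orthogroups with a value was 41.6, 46.5, 37.6 and 53.2 in Shag replicates 1 to 4, lowest where the group's share was highest, and between 74.6 and 78.2 in the Ssil libraries.

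By some measures, transcripts were spread over fewer orthogroups in Shag than in Ssil, except at the very top. The share of the 100 highest orthogroups was the main measure, and the species overlapped in it. Shares of the 500 and 10 highest were alternatives to it. The 500 highest orthogroups held 75.9%, 73.2%, 77.8% and 70.5% of TPM in Shag replicates 1 to 4, against 64.6%, 64.7%, 63.7% and 63.3% in Ssil replicates 1 to 4. The groups did not overlap, and they differed by 10.3 percentage points (exact permutation test, two-sided, p = 0.0286). With 4 libraries on either side no smaller p can be reached. For the 100 highest, the shares were 49.1%, 45.3%, 51.4% and 42.3% in Shag and 42.0%, 42.4%, 41.3% and 41.0% in Ssil. Here Shag replicate 4 fell within the range of Ssil, and the exact permutation p was 0.0571.

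The 10 highest orthogroups showed the opposite direction, with 13.7% ± 1.1 of TPM in Shag and 17.4% ± 0.19 in Ssil (SD, n = 4 each), and an exact permutation p of 0.0286. To reach 50% of TPM took between 95 and 147 orthogroups in Shag and between 180 and 199 in Ssil. Without the 67 orthogroups, the 500 highest of the rest held 68.7% ± 1.2 in Shag and 64.9% ± 0.58 in Ssil. Of the 100 highest orthogroups of each species, 27 were the same, which is 27 of 100 in either list. The group of 67 made up 59 of the Shag list and none of the Ssil list, so these could not be shared. A further 6 of the Shag list had no value in Ssil.

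**Figure D2:**
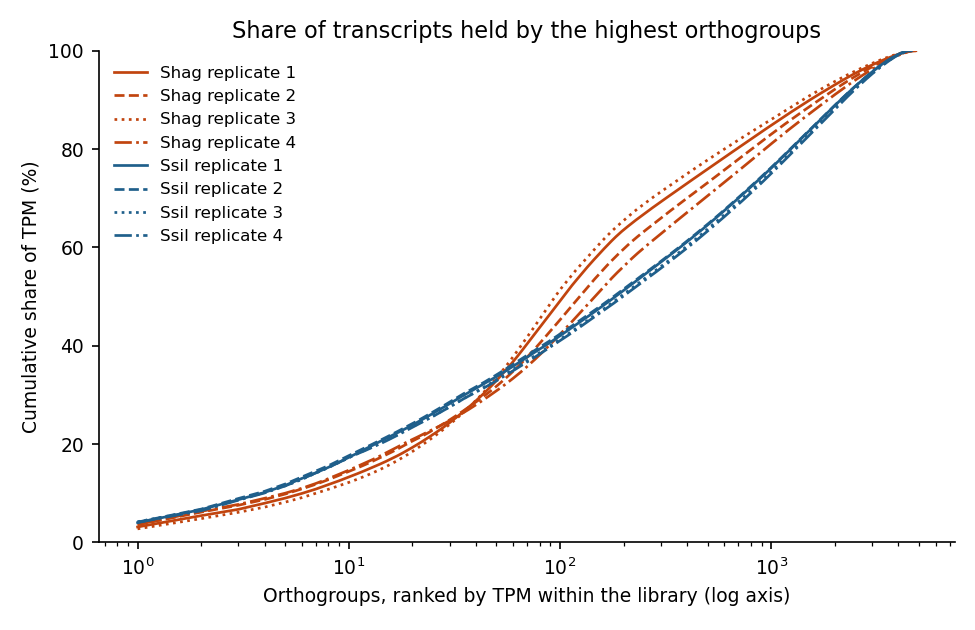
Cumulative share of TPM (%) against the number of orthogroups, ranked by TPM within each library (log axis), with 1 line for each of the 4 Shag and 4 Ssil libraries. The Shag lines start below the Ssil lines (13.7% against 17.4% at 10 orthogroups) and end above them (74.3% against 64.1% at 500), and the 4 Shag lines spread where the 4 Ssil lines coincide.

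Names could be given to 10 genes of sugar uptake, glycolysis, fermentation and their regulation. They are those for which the study lists gene IDs. Apart from *GAL4*, these lists concern predicted binding sites of transcription factors, mostly Gal4p, so the choice of genes is not independent of the study's interest in them. Of the 10, 8 were higher in Shag and 2 lower, both in TPM and after rescaling. In TPM their median difference was 1.07, against 22.6% higher and a median of −0.64 over all orthogroups tested. After rescaling it was 1.71, against 41.2% higher and a median of −0.01. Most of the named genes were at 1000 TPM or more, where 60% of all orthogroups were higher in TPM. All 7 glycolytic genes were higher in Shag, with a median of 1.16 in TPM and 1.80 after rescaling. Together these 7 held 7.02%, 7.87%, 5.89% and 7.89% of TPM in Shag replicates 1 to 4, against 4.53%, 4.41%, 3.90% and 3.76% in Ssil replicates 1 to 4. All 4 Shag libraries lay above all Ssil libraries.

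Shag replicate 3 had the lowest Shag value in each of the 10 named genes, and it was the lowest Shag library in 2848 of all 4417 orthogroups. It was also the library where the 67 orthogroups above took the largest share. With TPM recomputed without those 67, the 7 glycolytic genes held 9.62%, 9.90%, 8.56% and 9.38% in Shag and 4.58%, 4.47%, 3.97% and 3.83% in Ssil. On that scale, which leaves out *HXT*, the log2 differences were 0.68 for *PFK*, 0.76 for *TDH*, −0.66 for *ADH* and −0.70 for *GAL4*, and the other 5 named genes were between 1.36 and 3.24. All 9 kept their direction and their call in limma.

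**Figure D3:**
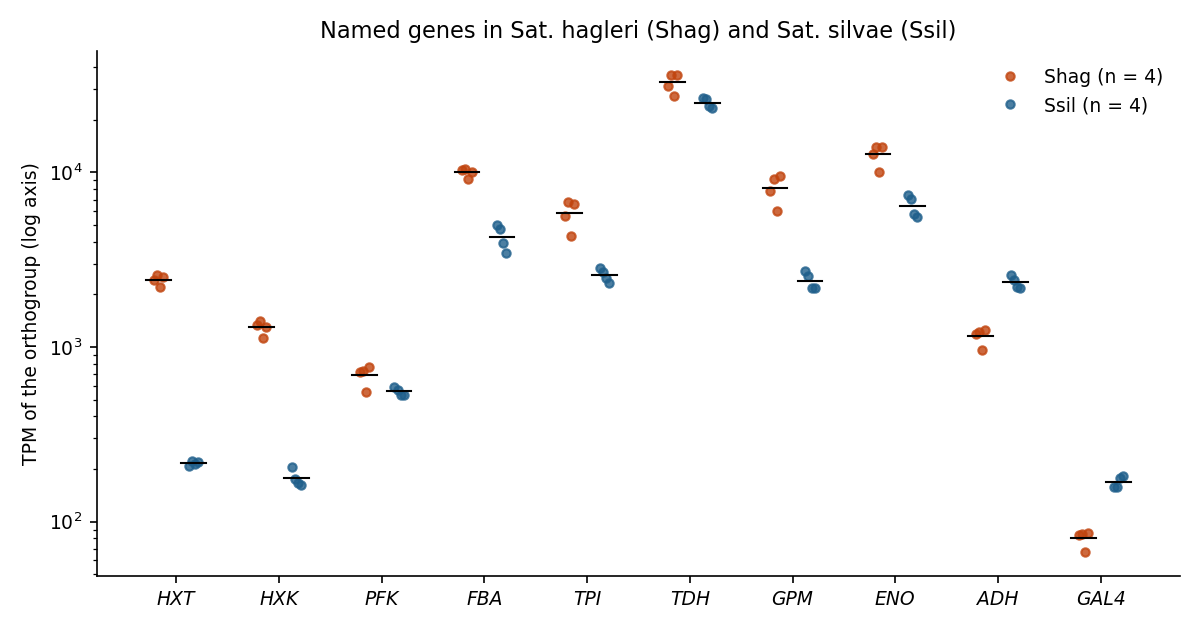
TPM of the 10 named genes (log axis) in the 4 Shag and 4 Ssil libraries, with each library a point and the mean a black line. Shag lies above Ssil without overlap in 7 genes, overlaps with it in *PFK*, and lies below it in *ADH* and *GAL4*. Of all 4417 orthogroups tested, 19.7% lay above and 56.4% below without overlap.

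*HXT* encodes hexose transporters that bring glucose into the cell, and in TPM it had the largest difference among the named genes. It had 2427, 2576, 2216 and 2520 TPM in Shag replicates 1 to 4, against 207, 222, 215 and 218 TPM in Ssil replicates 1 to 4. The Shag values were 11.3-fold the Ssil values on average and far outside their spread, and *HXT* ranked 96th in Shag and 780th in Ssil. The log2 difference was 3.49 ± 0.07 (SE; limma, adjusted p = 7.15e-16) in TPM and 4.13 after rescaling. *HXT* met the limits of the group of 67 but not its order over libraries, as Shag replicate 3 was the lowest.

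The number of copies bears on this value. The orthogroup held 1 gene of 528 codons in Shag and 2 genes of 1121 codons together in Ssil, and TPM divides by the summed length. In Ssil, gene g003770 took 99.0% ± 0.12 of the counts and g002846 took 0.97% ± 0.12 (SD, n = 4). Scaled to the counts in genes of each library and not to length (CPM), the Shag gene had 4000 ± 145, against 624 ± 18 for g003770 and 6.11 ± 0.83 for g002846 in Ssil. Without gene lengths the log2 difference of the orthogroup was 2.66 (limma, adjusted p = 5.1e-15), which is below the 3.11 of *HXK* on the same scale (limma, adjusted p = 1.25e-14).

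*HXK*, the hexokinase that adds the first phosphate to glucose, was also higher in Shag. It had 1345, 1402, 1125 and 1310 TPM in the Shag libraries, against 205, 176, 165 and 161 TPM in the Ssil libraries. The Shag libraries lay at 7.33-fold the Ssil mean, without overlap. On the log2 scale this was 2.87 ± 0.09 (SE; limma, adjusted p = 7.59e-14), and 3.5 after rescaling. The orthogroup had 1 gene in each species, of 469 codons in Shag and 473 in Ssil. The name comes from the Shag gene, and the Ssil value is that of the same orthogroup.

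*PFK*, which encodes phosphofructokinase and thus the step that commits the sugar to glycolysis, showed the smallest difference in TPM, though not after rescaling, where *ADH* and *GAL4* differed less. It had 715, 733, 549 and 773 TPM in Shag, against 593, 570, 529 and 532 TPM in Ssil. Shag replicate 3 fell within the Ssil range, and the other Shag libraries lay above it. The log2 difference of 0.31 ± 0.10 (SE) passed the threshold (limma, adjusted p = 0.00717), and after rescaling it was 0.94. Without Shag replicate 3 it was 0.41 (limma, adjusted p = 3.92e-05), and without Shag replicate 4 it was 0.25 (limma, adjusted p = 0.0242). Fitted to only the 8 libraries of Shag and Ssil, the same difference came closer to the threshold (limma, adjusted p = 0.0436).

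Both species had 2 *PFK* genes in the orthogroup, and in both the counts were shared almost evenly between them. In Shag, g001509 took 48.2% ± 2.7 and g004476 took 51.8% ± 2.7 of the counts (SD, n = 4). In Ssil, g000579 took 45.03% ± 1.5 and g005168 took 55.0% ± 1.5. Phosphofructokinase of *S. cerevisiae* is built of α and β subunits from a pair of genes, and the files do not say which of the genes here encodes which subunit.

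*FBA*, the aldolase that splits the phosphorylated sugar into a pair of triose phosphates, was higher in Shag. It had 10325, 10513, 9156 and 10106 TPM in Shag, against 5006, 4724, 3940 and 3471 TPM in Ssil. The lowest Shag library lay well above the highest Ssil library. In log2 it differed by 1.24 ± 0.11 (SE; limma, adjusted p = 1.19e-08), and 1.88 after rescaling. *FBA* ranked 6th in Shag and 25th in Ssil, and the coding length was 359 codons in both.

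*TPI*, which interconverts the triose phosphates, had 5658, 6748, 4323 and 6588 TPM in Shag, against 2822, 2703, 2489 and 2314 TPM in Ssil. The Shag libraries varied by a factor of 1.56, and all were above those of Ssil. The difference in log2 was 1.16 ± 0.13 (SE; limma, adjusted p = 1.51e-06) and 1.80 after rescaling. Under quantile normalization it was 0.60 (limma, adjusted p = 0.0114).

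*TDH*, glyceraldehyde-3-phosphate dehydrogenase, carries out the oxidation step of glycolysis. It was the highest orthogroup of Shag and the second highest of Ssil. It had 31479, 36086, 27611 and 36382 TPM in Shag, against 26576, 26378, 23913 and 23404 TPM in Ssil. The groups did not overlap, but Shag replicate 3 and Ssil replicate 1 came close. On the log2 scale it differed by 0.39 ± 0.11 (SE; limma, adjusted p = 0.00312) and 1.03 after rescaling. The gene had 336 codons in both species.

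*GPM*, phosphoglycerate mutase, had the largest difference of the lower glycolytic genes. It had 7872, 9197, 6019 and 9605 TPM in Shag, against 2717, 2537, 2174 and 2172 TPM in Ssil. The Shag libraries were 3.41-fold the Ssil libraries on average. This was 1.75 ± 0.13 in log2 units (SE; limma, adjusted p = 1.75e-09), and 2.39 after rescaling.

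*ENO*, the enolase that forms phosphoenolpyruvate, had 12793, 13984, 10096 and 14086 TPM in Shag, against 7390, 7027, 5796 and 5565 TPM in Ssil. It was the third highest orthogroup of Shag and ranked 14th in Ssil. Its log2 difference was 0.98 ± 0.12 (SE; limma, adjusted p = 1.07e-06), and 1.62 after rescaling.

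*ADH*, the alcohol dehydrogenase orthogroup, went the other way. Alcohol dehydrogenases interconvert acetaldehyde and ethanol, and their isoenzymes in *S. cerevisiae* serve either the production or the use of ethanol. The orthogroup had 1184, 1221, 956 and 1257 TPM in Shag, against 2594, 2416, 2213 and 2178 TPM in Ssil. All Shag libraries lay below all Ssil libraries, and the orthogroup ranked 170th in Shag and 46th in Ssil. The log2 difference was −1.03 ± 0.10 (SE; limma, adjusted p = 6.31e-08) and only −0.39 after rescaling (limma, adjusted p = 0.00362).

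Each species had 3 *ADH* genes in the orthogroup, and in both a single gene took nearly all counts. In Shag it was g001303 with 97.4% ± 0.19, and in Ssil it was g000805 with 98.3% ± 0.11 (SD, n = 4). The 2 minor genes had mean levels of 29.1 and 71.4 CPM in Shag and 26.3 and 90.3 CPM in Ssil. The difference between the species in this orthogroup was thus a difference in the major gene, at 3817 ± 320 CPM in Shag and 6581 ± 537 CPM in Ssil. The files do not tie these genes to a particular isoenzyme.

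*GAL4* encodes a transcription factor that activates the genes of galactose use in *S. cerevisiae*. The study describes this role as specific to the order of that yeast. In *Sat. dispora*, it reports that deleting the gene lowered glucose consumption and the activity of the *TDH* promoter. *GAL4* had 83.7, 84.5, 67.1 and 85.7 TPM in Shag, against 159, 158, 177 and 182 TPM in Ssil. All Shag libraries were lower than all Ssil libraries, and 3 of the 4 Shag values were nearly equal. In log2 the difference was −1.07 ± 0.09 (SE; limma, adjusted p = 8.11e-09) and −0.43 after rescaling (limma, adjusted p = 0.000159). The coding length was 944 codons in Shag and 897 in Ssil. These are transcript levels and say nothing of the activity of the protein.

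Orthogroups without a name held the largest single differences. Among those with 1 gene in each species and no overlap between the groups, OG0000764 and OG0000255 had the largest increases. OG0000764 had 129, 87.9, 85.9 and 69.99 TPM in Shag, against 0.23, 0.31, 0.51 and 0.16 TPM in Ssil, where it rested on 2 to 12 counts per library. A count of 3 per library corresponded to 0.16 TPM in Ssil on average, so these Ssil values are imprecise. The log2 difference was 6.15 ± 0.17 (SE; limma, adjusted p = 1.60e-14), a value that depends on the added 1 TPM, and 6.30 after rescaling.

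OG0000255 had 4535, 3577, 5064 and 2535 TPM in Shag, against 37.0, 45.4, 67.3 and 68.9 TPM in Ssil. It belonged to the group of 67 and showed the same order of Shag libraries. Its log2 difference was 6.14 ± 0.20 (SE; limma, adjusted p = 1.16e-13), and 6.77 after rescaling, with coding lengths of 88 codons in Shag and 168 codons in Ssil. A length that differs this much also changes TPM.

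The largest decreases were in OG0000556 and OG0004107. OG0000556 had 0.94, 1.49, 0.56 and 1.02 TPM in Shag, from 6 to 14 counts per library, against 5277, 5503, 5909 and 6734 TPM in Ssil, where it was the 17th highest orthogroup. The log2 difference was −11.53 ± 0.18 (SE; limma, adjusted p = 2.90e-17) and −10.91 after rescaling, and the gene had 268 codons in both species. It was thus transcribed at a high level in Ssil and close to the limit of detection in Shag.

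OG0004107 had 5.96, 7.40, 5.23 and 10.8 TPM in Shag, against 2819, 2779, 2766 and 2747 TPM in Ssil. The 4 Ssil libraries were nearly equal, and the log2 difference was −8.42 ± 0.17 (SE; limma, adjusted p = 3.52e-16), or −7.79 after rescaling. The coding length was 361 codons in Shag and 362 in Ssil. The files do not pair any of these 4 orthogroups with a gene name.

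The highest orthogroup of Ssil, which the files leave unnamed, was the second highest of Shag. It had 23007, 25573, 20803 and 26834 TPM in Shag, against 40236, 41359, 42063 and 41002 TPM in Ssil. The groups did not overlap in TPM, where the log2 difference was −0.78 ± 0.10 (SE; limma, adjusted p = 1.29e-06), but rescaled values differed by −0.14, which did not pass the threshold (limma, adjusted p = 0.294).

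Differences were also set against gene length and copy number. Genes were tied to 4393 of the orthogroups tested in both species. In the 2829 whose coding lengths were within 5% of each other, 26.3% were higher and 55.6% lower in Shag, with a median difference of −0.46. In the 227 whose Shag length was at least 25% longer, 11.01% were higher and 72.7% lower, with a median of −1.27. In the 179 whose Ssil length was at least 25% longer, 30.2% were higher and 56.4% lower, with a median of −0.52. Without gene lengths the medians of these 3 classes were −0.20, −0.44 and −1.002 in the same order, and that of all tied orthogroups was −0.37.

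Copy numbers rarely differed. Of the tied orthogroups, 4228 had 1 gene in each species, 42 had more genes in Shag and 65 had more in Ssil. The median difference was −0.64 in orthogroups with 1 gene in each, −1.18 where Shag had more and −0.50 where Ssil had more. As for *HXT*, extra copies add to the length by which TPM is divided. Without gene lengths the medians were −0.36, −0.15 and −0.84 in the same order.

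Orthogroups with a value in Shag and not in Ssil held a modest share of transcripts. The 339 together made up 4.81%, 5.40%, 4.55% and 5.88% of TPM in Shag replicates 1 to 4. Their median level was 30.8 TPM, against 46.3 TPM for the orthogroups that Shag shared with Ssil, and 280 of them reached a mean of 5 TPM. The 2 highest alone held 33.4% of the summed level. The highest, OG0004811, had 8965, 9468, 8936 and 9836 TPM in the Shag libraries and was the seventh highest orthogroup of the species. It had no value in any of the other species, and its gene, g001439, had 252 codons.

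The 110 orthogroups with a value in Ssil and not in Shag made up 1.39%, 1.34%, 1.34% and 1.40% of TPM in Ssil replicates 1 to 4. Their median level was 44.6 TPM, against 77.4 TPM for the orthogroups that Ssil shared with Shag, and 95 of them reached 5 TPM. The highest, OG0000002, had 1849, 1854, 1766 and 1745 TPM in Ssil, and no gene was tied to it. It also had a value in Smen, at a mean of 497 TPM, and none in Sdis.

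Presence in the other pair of species was uneven. Of the 339 orthogroups that Ssil lacked, 145 (42.8%) also had a value in Sdis but not in Smen, 145 (42.8%) had one in both, 8 in Smen alone and 41 in neither. Of the 110 that Shag lacked, 59 (53.6%) also had a value in Smen but not in Sdis, 24 had one in both, 11 in Sdis alone and 16 in neither. Orthogroups shared by 2 species of a class reflect descent as well as class, and these cannot be told apart with 4 species. A missing value means that no gene of the species was placed in the orthogroup, which is not a measurement of 0.

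**Figure D4:**
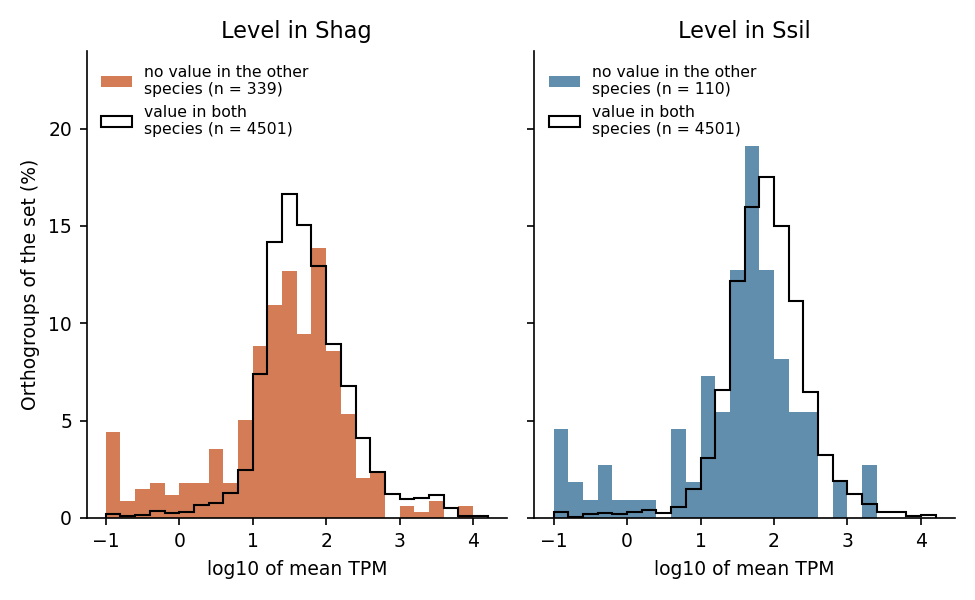
Share of orthogroups (%) by log10 of the mean TPM over 4 libraries, for those with no value in the other species (filled) and those with a value in both (black line), in Shag (left) and in Ssil (right), with levels under 0.1 TPM drawn at 0.1. The filled distributions have medians of 30.8 TPM in Shag and 44.6 TPM in Ssil, against 46.3 and 77.4 TPM for shared orthogroups, and a tail at low levels.

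The other pair of a rapid and a low ECAR species, Sdis and Smen, shares no library with Shag and Ssil and allowed the difference itself to be compared. In the 4231 orthogroups with a value in all 4 species, 3520 were called between Shag and Ssil, 3279 (77.5%) between Sdis and Smen, and 2770 in both pairs. Of these, 431 were higher in both Shag and Sdis and 1575 lower in both, 307 were higher in Shag and lower in Sdis, and 457 the reverse. The sign was the same in 72.4% of orthogroups called in both pairs, in 65.6% of all 4231, and in 63.7% of all after rescaling. Both pairs leaned towards lower levels in TPM, which raises the share of equal signs. Across these genes, which are not independent replicates, the Shag minus Ssil and Sdis minus Smen differences had a Pearson correlation of 0.37 and a Spearman correlation of 0.36.

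The size of the difference was not the same in the pairs for most orthogroups. It differed in 3013 of 4231 (71.2%; limma interaction, adjusted p under 0.05), and in 74.9% after rescaling. In 1150 the Shag minus Ssil difference was the more positive, and in 1863 the more negative. After rescaling these numbers were 1563 and 1606.

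Of the 9 named genes with a value in all species, 7 differed between the pairs, and 6 after rescaling, shares near the 71.2% and 74.9% of all orthogroups. *HXT* and *HXK* differed more between Shag and Ssil, by 1.84 ± 0.10 and 1.12 ± 0.12 in log2 units (SE; limma, adjusted p = 1.70e-10 and 6.06e-07), as the Sdis minus Smen differences were 1.64 and 1.75. *PFK* and *FBA* differed less, by −1.14 ± 0.13 and −1.05 ± 0.15 (SE; limma, adjusted p = 1.17e-06 and 9.42e-06), at Sdis minus Smen differences of 1.44 and 2.29. For *TDH* the gap was −0.35 ± 0.15 (SE; limma, adjusted p = 0.0462), and it was −0.08 after rescaling, under the threshold for a call (limma, adjusted p = 0.708).

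*GPM* and *ENO* had similar differences in the pairs in TPM. The Sdis minus Smen difference was 1.80 for *GPM* and 0.94 for *ENO*, and the gaps to the Shag minus Ssil differences were −0.05 ± 0.18 and 0.04 ± 0.17 (SE; limma, adjusted p = 0.824 and 0.852). After rescaling the gaps were 0.22 and 0.31, and neither was called (limma, adjusted p = 0.228 and 0.132). *TPI* had no value in Sdis and was not compared.

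The largest gap was in *ADH*. The Sdis minus Smen difference was 2.62, where that of Shag minus Ssil was −1.03, and the gap of −3.65 ± 0.14 (SE) was called (limma, adjusted p = 2.19e-12). The orthogroup was therefore higher in the rapid ECAR species of the one pair and lower in that of the other, also after rescaling, with a gap of −3.38. *GAL4* was near equal in Sdis and Smen, at a difference of 0.17, and its gap was −1.24 ± 0.12 (SE; limma, adjusted p = 1.82e-07).

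**Figure D5:**
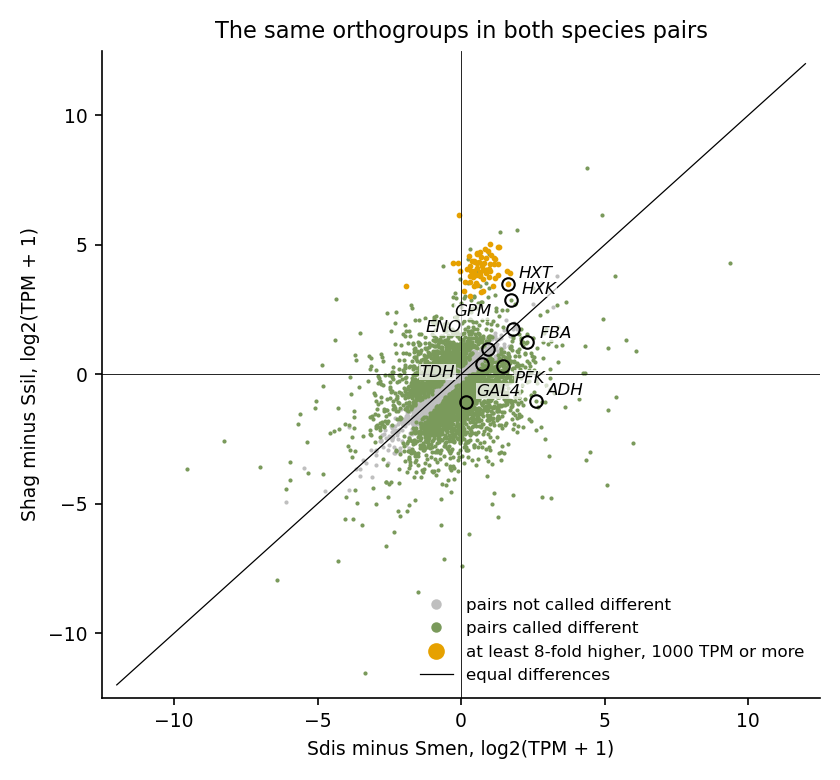
Shag minus Ssil against Sdis minus Smen, both in log2(TPM + 1), for the 4231 orthogroups with a value in all 4 species, with the line of equal differences and the named genes circled. *GPM* and *ENO* lie on the line, and *ADH* lies far below it at 2.62 and −1.03. The orange group lies above the line, which follows largely from its choice by a Shag minus Ssil difference of at least 8-fold.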

How the data were processed

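Poly(A) RNA was sequenced as pairs of 150 bp reads. Per the labels and the study's methods, the authors trimmed reads with Trimmomatic 0.30, aligned them with HISAT2 2.1.0 to the genome of each species and counted them per gene with HTSeq 2.0.3, and the deposited expected counts are fractional where reads fit several genes. The TPM values deposited by the authors sum counts and lengths over the genes of an orthogroup. Genome builds are not given in the sources used here.

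TPM was tested with limma 3.58.1 (R 4.3.3) on log2(TPM + 1), fitting 1 mean per species to the 16 libraries together with a trend of variance on intensity, and p-values were adjusted by Benjamini-Hochberg over all orthogroups tested (threshold 0.05). The test needed a value in Shag and Ssil and a mean of at least 5 TPM over their 8 libraries, which left out 84 of 4501 orthogroups. The fold changes understate those of low orthogroups. The interaction, (Shag − Ssil) − (Sdis − Smen), came from the same fit. The SEs of this fit pool the spread of all 4 species, although Shag varied more than Ssil. Fitted to only the 8 libraries of Shag and Ssil, 927 orthogroups were higher and 2563 lower. The adjusted p was then 5.46e-09 for *HXT*, 5.32e-08 for *HXK* and 0.019 for *TDH* (limma). Shares were compared by exact permutation of libraries. As alternatives, edgeR 4.0.16 and DESeq2 1.42.0 were run on the counts after rounding, with offsets for gene length. Depth limits low values: 3 counts per library were taken as the limit of detection.

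Genes were tied to orthogroups by equal proportions over libraries, to within 1e-08, which tied 99.7% of TPM and 97.3% of counts in genes in Shag, and 99.6% of TPM and 90.8% of counts in Ssil. Untied counts are left out of the tests on counts and of values without gene length, except in the library totals behind CPM. Lengths were multiples of 3 bases in 99.8% (Shag) and 99.6% (Ssil) of orthogroups, and are coding lengths.

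The named genes are the 10 genes with listed IDs, the 2 largest and 2 smallest differences among called orthogroups with 1 gene in each species and no overlap, and the highest orthogroup of each set. Members, lists and tests were chosen with earlier results of these data known. *PGI*, *PGK*, *PYK*, *PDC* and the genes of the TCA cycle are not analysed here. Alternatives were other pseudocounts and filters, rescaling by median ratio, quantile normalization, no gene length, no trend, only 8 libraries, a replicate block, a 2-fold limit, edgeR, DESeq2 and leaving out each library.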

Additional observations from a re-analysis of the deposited data

Results flagged for a closer look

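In 7 named genes the Shag minus Ssil difference was not the same as the Sdis minus Smen difference by the interaction term of limma, as in 71.2% of all orthogroups compared. The gap in log2 was 1.84 for *HXT*, 1.12 for *HXK*, −1.14 for *PFK*, −1.05 for *FBA*, −0.35 for *TDH*, −3.65 for *ADH* and −1.24 for *GAL4*. For *TDH* it was −0.08 after rescaling and no longer called (limma, adjusted p = 0.708). In 1 of 22 groups of 4 libraries examined, a single library lay apart from the rest. This was *GAL4* in Shag, where replicate 3 had 67.1 TPM against 83.7 to 85.7 TPM in the other 3, a gap of 0.894 of the whole range. Chance gives about 1 such group in 20 (0.05).

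Gene g002341 of Ssil was tied to no orthogroup here. It took 6.73%, 6.81%, 6.42% and 6.31% of the counts in genes in Ssil replicates 1 to 4 (6.57% on average) and was the gene with the most counts in Ssil. Its proportions over the libraries came within 1.01% of those of OG0000002, the highest orthogroup of Ssil without a value in Shag, but not within the tolerance for a tie. Whether its counts enter the TPM of that orthogroup is not known. The most highly counted Shag gene that was tied to no orthogroup took 0.47% on average.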

How the results depend on the processing

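Of the 215 values of the named genes under the alternatives other than the 2-fold limit, all kept their direction and their call. *PFK*, *TDH* and *ENO*, at 0.31, 0.39 and 0.98, were under 2-fold in TPM. The number of orthogroups higher in Shag was 998 and became 1818 after median-ratio rescaling, 1824 after quantile normalization, 1764 with edgeR, 1821 with DESeq2 and 442 at 2-fold. The number lower was 2678 and became 1821, 1842, 1731, 1752 and 1653 in the same order, and 1556 among the 2799 orthogroups with 1 gene in each species and lengths within 5%. The median difference of −0.64 became −0.0106 after median-ratio rescaling, −0.0141 after quantile normalization, −0.37 without gene length, −0.30 without the 67 orthogroups, and turned to 0.0206 with edgeR and 0.0302 with DESeq2. These 4 scalings set the typical gene to no difference by construction, and without gene length the cause was not tested. The 3013 orthogroups that differed between the pairs became 1856 at 2-fold. The difference in the share of the highest orthogroups was 5.34 percentage points for 100, −3.69 for 10, 10.3 for 500 and 8.08 for 100 without gene length. The exact permutation p was 0.0571 for the first, which was the main measure, and 0.0286 for each of the others.

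Leaving out each library in turn gave 949 to 1064 higher, 2589 to 2790 lower, medians of −0.70 to −0.55, 2917 to 3171 orthogroups that differed between the pairs, and 3.89 to 6.90 percentage points for the 100 highest. The labels do not say that replicate numbers pair the libraries. Deviations of Shag and Ssil libraries with the same number correlated at −0.19, 0.23, 0.33 and −0.24, which cannot decide whether they shared a batch. With a replicate block, 992 were higher, 2667 lower and 3009 differed between the pairs.

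With 4 libraries on each side, no exact permutation p falls under 0.0286. Libraries of at least 6196684 counts leave orthogroups near 3 counts with little precision. The count tests of the difference used the 8 libraries of Shag and Ssil. Each species stands for its ECAR class once, and hours of collection differ.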
